A study of Mus musculus with 14 samples.

Results

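The dystrophin-glycoprotein complex genes described here were the 8 genes named Dmd, Utrn, Dag1, Sgca, Sgcb, Sgcd, Dtna and Sspn, chosen by exact gene name from the 54532 genes of the deposited count and FPKM tables. Each name matched a single gene, and all 8 passed the filter on low counts that left 15458 genes for testing. The complex spans the sarcolemma, the plasma membrane of the muscle fibre. On the inside dystrophin holds on to cytoskeletal actin, and on the outside dystroglycan binds laminin in the basement membrane, while the sarcoglycans and sarcospan stabilise this bridge laterally. Loss of dystrophin or of a sarcoglycan leaves the membrane prone to tearing during contraction and causes muscular dystrophy, and utrophin, a close relative of dystrophin, occupies the same place at the neuromuscular junction and during regeneration.

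The libraries were poly-A selected mRNA from skeletal muscle of male FVB/N mice, 14 in all. In the overexpression mice (OE) a Tet-O-Myc transgene, which carries human c-Myc on the Y chromosome, was switched on by a tTA driven from the endothelial Cdh5 promoter; the control mice (CT) were littermates with Tet-O-Myc and no tTA. All mice were kept on doxycycline food until 4 to 6 weeks of age, when its withdrawal released the transgene in mice that carried the driver, and per the labels the diets lasted 20 weeks, although the study's text gives another duration for the transcriptome. Within each genotype some mice received control diet (CTD) and others the high-fat western diet (WD), which gave 3 libraries each for CT-CTD and CT-WD and 4 each for OE-CTD and OE-WD. The purpose of the series was to ask what endothelial c-Myc does to skeletal muscle under both diets. The study's methods name soleus and gastrocnemius as sources, and the labels do not say which muscle each library came from.

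The transgene was driven in endothelial cells, whereas the libraries were made from whole muscle. In bulk tissue, fewer cells of a type and less RNA per cell cannot be told apart. The label of skeletal muscle held: all 10 fibre markers had counts in every library, with Myh4 the most abundant at a mean of 48980 CPM (counts scaled to a common library total), and their summed level was 115910 to 166040 CPM. Reads of the human transgene need not be counted under mouse Myc, which reached 4.59, 6.11 and 4.45 CPM in CT-CTD, 8.71, 4.93 and 13.3 CPM in CT-WD, 6.63, 5.87, 6.84 and 3.06 CPM in OE-CTD, and 9.03, 5.61, 5.74 and 5.22 CPM in OE-WD. The mouse Myc values overlapped between all 4 groups, so they do not mark which libraries expressed the transgene.

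Library totals ran from 21833839 to 28519159 counts. CPM below were scaled with TMM factors, which adjust for differences in composition between libraries. The labels do not say that the libraries came from separate animals, so every p-value measures spread between these samples only. A legend of the study gives n = 3 for control diet and n = 4 for western diet. The labels, which were kept, give 3 libraries for each control and 4 for each overexpression group. Exchanging the names of CT-WD and OE-CTD would rename the pairwise comparisons and leave the diet by genotype interaction as it is. The CT sample names form a series apart from the OE names. Under the labels all OE libraries lay above all CT libraries on each diet for Lamb1 and the endothelial marker sum, given further on. After such an exchange the same libraries would be split by diet, so these values do not settle the names. The study reports more genes altered by diet in CT than in OE, by a fold threshold. At an unadjusted p under 0.05, 4.03% of genes were higher and 3.06% lower with diet in CT, against 1.85 and 2.17% in OE. After an exchange the shares would be 8.96 and 6.53% in CT and 8.21 and 8.25% in OE. Both shares were thus larger in CT under the labels, but only that of higher genes would be after an exchange. Library 4 of each OE group stood apart. Its gene counts differed from those of the other OE libraries of its group by a chi-square per degree of freedom of 37.0 to 43.0 in OE-CTD and 38.9 to 42.8 in OE-WD, against 7.81 to 15.2 among the other OE libraries; sampling alone gives about 1. The CT libraries differed among themselves by 16.8 to 50.8, and the libraries numbered 1 of both CT groups had sample names apart from those of the other CT libraries. All 4 OE-WD sample names shared a common number, and 3 of the 4 OE-CTD names, those of libraries 1 to 3, shared another. What these numbers stand for is not stated, so it is not known whether the OE libraries are independent of each other, and the n, SD and p-values of the OE groups are to be read with that limit.

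Levels are compared between genes on the FPKM scale, which divides by gene length; CPM is used for 1 gene across libraries. The mean FPKM over the 14 libraries was 122 ± 13.5 (SD) for Sgca, 47.2 ± 5.27 for Dag1, 29.2 ± 1.81 for Sgcb and 12.7 ± 1.37 for Sspn. Below these came Dtna at 4.85 ± 0.823, Dmd at 4.37 ± 0.501, Utrn at 1.65 ± 0.224 and Sgcd at 0.700 ± 0.262. Each gene lay above the next in 14 of 14 libraries, except that Dtna exceeded Dmd in 9 of 14, so these neighbours did not differ beyond their spread. Per length, the transcripts of Sgca, Dag1, Sgcb and Sspn therefore outnumbered the dystrophin transcript, and those of Utrn and Sgcd did not. FPKM of long genes with internal starts pools full-length and short forms, and the deposited exonic length of Dmd, 23801 bases, is that of all its isoforms together.

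The genes sit on 7 chromosomes and share no neighbourhood. On GRCm38 the dystrophin gene Dmd (ENSMUSG00000045103) spans X:82948870-85206141 on the plus strand, and utrophin, Utrn (ENSMUSG00000019820), spans 10:12382188-12869365 on the minus strand. Dystroglycan, Dag1 (ENSMUSG00000039952), lies at 9:108204634-108263958 on the minus strand. Sgca (ENSMUSG00000001508) and Sgcd (ENSMUSG00000020354) both lie on the minus strand of chromosome 11, at 94962791-94976327 and 46896253-47988969, and Sgcb (ENSMUSG00000029156) lies at 5:73632749-73647790 on the same strand. Dtna (ENSMUSG00000024302) spans 18:23415135-23659715 and Sspn (ENSMUSG00000030255) spans 6:145931641-145965223, both on the plus strand. The exons of Dtna overlap those of the antisense gene Gm47898 over 90 bases and those of Sspn overlap Sspnos over 69 bases; since the counting strand is not stated, reads in these stretches cannot be assigned to one partner. The antisense genes held a mean of 45.6 and 1.07 counts, against at least 1447 for Dtna and 961 for Sspn in any library.

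Dmd encodes dystrophin, the rod between actin and dystroglycan. Its level in CT-CTD was 102, 105 and 104 CPM, and in CT-WD it was 99.9, 63.7 and 89.9 CPM. In OE-CTD it was 96.8, 94.5, 95.9 and 81.0 CPM, and in OE-WD 106, 101, 97.4 and 96.3 CPM. The CT-CTD libraries lay close together, every CT-WD library was lower than every CT-CTD library, and most of that distance came from CT-WD 2, the lowest of the 14. Every OE-CTD library was also lower than every CT-CTD library, with OE-CTD 4 the lowest of its group, while OE-WD overlapped with both OE-CTD and CT-WD. Group means were 103 ± 1.66 (SD, n = 3) in CT-CTD, 84.5 ± 18.7 (n = 3) in CT-WD, 92.1 ± 7.40 (n = 4) in OE-CTD and 100.2 ± 4.50 (n = 4) in OE-WD.

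Utrn encodes utrophin, which in adult muscle is made at the junction and also in non-fibre cells such as endothelium. It reached 21.4, 20.3 and 25.7 CPM in CT-CTD and 29.6, 22.4 and 25.6 CPM in CT-WD. In OE-CTD it reached 23.5, 27.7, 28.3 and 24.8 CPM, and in OE-WD 25.1, 33.9, 28.4 and 25.5 CPM. All groups overlapped; CT-CTD held the 2 lowest libraries and OE-WD 2 was the highest. Means were 22.4 ± 2.88, 25.9 ± 3.62, 26.1 ± 2.32 and 28.2 ± 4.05 CPM (SD) in CT-CTD, CT-WD, OE-CTD and OE-WD.

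The FPKM of Utrn as a percentage of that of Dmd sets the homologues side by side in each library. It was 29.2, 26.9 and 34.4% in CT-CTD and 41.3, 49.0 and 39.6% in CT-WD. In OE-CTD it was 33.7, 40.7, 41.1 and 42.6%, and in OE-WD 32.9, 46.8, 40.5 and 36.8%. Every CT-WD library lay above every CT-CTD library, and the OE groups overlapped with both. The group means were 30.2 ± 3.86, 43.3 ± 5.01, 39.5 ± 3.96 and 39.2 ± 5.92% (SD) in the same order. This ratio was chosen after the values had been seen and was given no test.

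Dag1 encodes both dystroglycan subunits as a single precursor. It reached 249.8, 249 and 309 CPM in CT-CTD and 249.9, 249.6 and 262 CPM in CT-WD. In OE-CTD it reached 239, 283, 259 and 322 CPM, and in OE-WD 273, 297, 269 and 328 CPM. Every OE-WD library lay above every CT-WD library, whereas OE-CTD straddled CT-CTD. The libraries numbered 4 were the highest of both OE groups, and CT-CTD 3 was the high library of its own group.

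Sgca, Sgcb and Sgcd encode alpha-, beta- and delta-sarcoglycan, subunits of a single membrane assembly; the alpha subunit is confined to striated muscle, whereas beta and delta are also made in smooth muscle. Sgca reached 185, 215 and 221 CPM in CT-CTD and 178, 229.7 and 224 CPM in CT-WD. In OE-CTD it reached 191, 175, 177 and 202 CPM, and in OE-WD 179, 175, 172 and 195 CPM. In each CT group library 1 was far below the other 2 and within the range of the OE libraries, so the groups overlapped through that library. CT-CTD 2 and 3 and CT-WD 2 and 3 were each above all 8 OE libraries.

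Sgcb was the steadiest of the subunits, with 105, 117 and 112 CPM in CT-CTD and 106, 121 and 111 CPM in CT-WD. Its OE values were 101, 109, 98.5 and 105 CPM in OE-CTD and 117, 106, 103 and 107 CPM in OE-WD. The CT and OE ranges overlapped on both diets. Sgcd was the scarcest member, resting on 70 to 241 counts per library, so its values carry more counting error than those of the other 7, which had 464 to 8568 counts. It reached 4.59, 6.53 and 6.43 CPM in CT-CTD and 3.58, 4.25 and 5.60 CPM in CT-WD. In OE-CTD it reached 4.03, 3.46, 4.74 and 8.47 CPM, and in OE-WD 4.47, 5.08, 2.98 and 9.68 CPM. The 2 highest libraries of all were OE-CTD 4 and OE-WD 4, and without them the OE values ran within or below the CT range.

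Sspn encodes sarcospan, a small protein with several membrane spans that joins the sarcoglycans. It reached 50.3, 63.1 and 62.4 CPM in CT-CTD and 48.0, 46.4 and 56.4 CPM in CT-WD. In OE-CTD it reached 63.6, 60.9, 58.3 and 64.6 CPM, and in OE-WD 57.7, 60.4, 57.7 and 64.8 CPM. Every OE-WD library was above every CT-WD library, and CT-WD 1 and 2 were the lowest of the 14, followed by CT-CTD 1. Dtna encodes alpha-dystrobrevin, which binds dystrophin and syntrophins on the cytoplasmic side and is dense at the neuromuscular junction. Dtna reached 63.6, 89.6 and 107 CPM in CT-CTD and 65.7, 73.0 and 91.4 CPM in CT-WD. In OE-CTD it was 69.8, 63.9, 68.9 and 73.8 CPM, and in OE-WD 67.3, 68.1, 69.5 and 80.3 CPM. The OE libraries formed a narrow band, and the CT libraries ran from the lower edge of that band to well above it, with library 1 the lowest of each CT group.

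**Figure D1:**
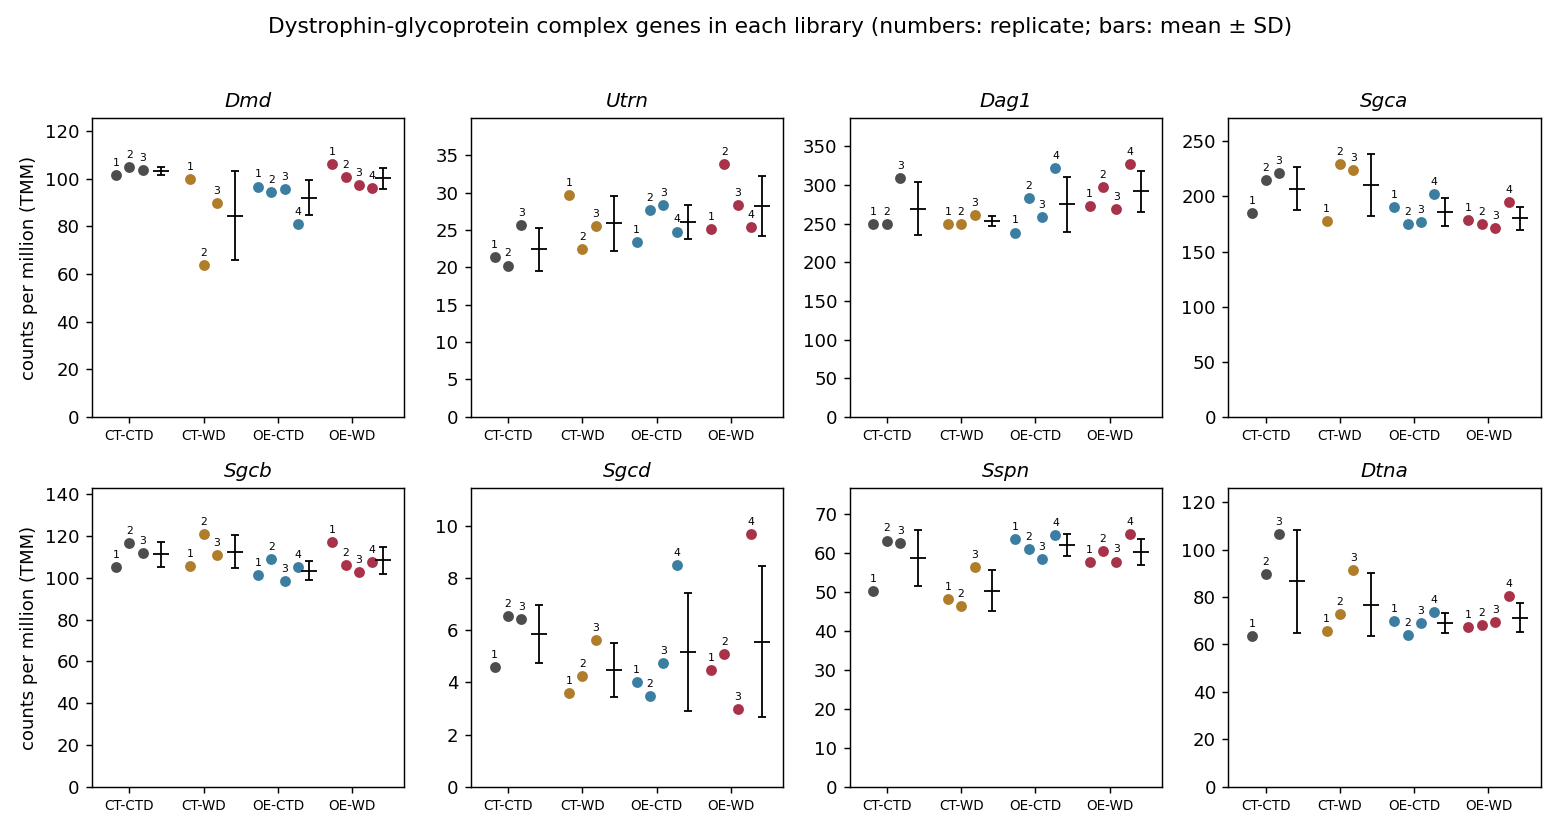
Level of each of the 8 genes in every library in TMM-scaled CPM (vertical axis, separate scale for each gene) by group (horizontal axis); digits are library numbers, and lines with bars give the group mean and SD. Dmd was lowest in CT-WD 2 at 63.7 CPM, library 1 was the lowest of each CT group for Sgca and Dtna, and Sgcd was highest in the libraries numbered 4 of both OE groups.

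The effect of western diet in control mice (CT-WD against CT-CTD) was tested with edgeR, which fits a negative binomial model to the counts of all genes; fold changes are log2 with standard error (SE), and a gene was called at an adjusted p (Benjamini-Hochberg over 15458 genes) under 0.05. No member was called (0 of 8), as was 0% of all genes tested, and 0 of 8 were called by DESeq2 or limma. At an unadjusted p under 0.05, 0 members were higher, against 4.03% of genes, and 2 were lower, against 3.06%. These were Dmd, with a fold of -0.29 (SE 0.123, adjusted p = 0.658), and Sspn, with -0.22 (SE 0.101, adjusted p = 0.689). Without CT-WD 2 the fold of Dmd was -0.12 (SE 0.0975) and 0 of 8 members had an unadjusted p under 0.05. That count was 3 without CT-CTD 1, where Dtna joined them, 0 without CT-CTD 2, 1 without CT-WD 1 or OE-CTD 1, and without CT-CTD 3 it was 0 lower and 1 higher, Utrn. With the replicate number as a block, which pairs the CT libraries of the diets, the fold of Dmd was -0.31 (SE 0.111). With all libraries Utrn had a fold of 0.21 (SE 0.135, adjusted p = 0.854), which was 0.10 without CT-WD 1 and 0.32 without CT-CTD 3. Dmd was the 1 member of 8 whose groups did not overlap, against 9.63% of genes tested. The median fold of the 8 was -0.13, against 0.01 for all genes, and a single library turned its sign: without CT-CTD 3 it was 0.01, with 5 of 8 members above 0. It was -0.23 without CT-CTD 1, -0.08 without CT-WD 1 and -0.21 without CT-WD 3.

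The effect of western diet under overexpression (OE-WD against OE-CTD) likewise gave 0 of 8 members called by edgeR, against 0.00647% of genes (1 gene), and 0 of 8 by DESeq2 or limma. Before adjustment, 0 members were higher at a p under 0.05 (1.85% of genes) and 0 lower (2.17%). Dmd had a fold of 0.12 (SE 0.107) and Utrn of 0.11 (SE 0.116), each with an adjusted p = 0.9999. The fold of Dmd was 0.07 without OE-CTD 4, and that of Utrn was 0.02 without OE-WD 2 and 0.07 without OE-CTD 1. All 8 members overlapped between the groups, where 4.08% of genes did not. Member folds ran from -0.05 to 0.12, with a median of 0.07 against 0.00 for all genes. Both values moved with single libraries: the folds ran from -0.02 to 0.45 without OE-CTD 4, from -0.02 to 0.32 without OE-WD 3, from -0.04 to 0.21 without OE-WD 1, and from -0.29 to 0.16 without OE-WD 4, where the median was 0.00. Sgcd was the member at the wide end each time, and with both libraries numbered 4 left out the range was -0.06 to 0.14. The median was 0.03 without OE-CTD 1.

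The effect of overexpression on western diet (OE-WD against CT-WD) gave 0 of 8 members called by edgeR with all libraries, against 0.66% of genes, and 0 by DESeq2 or limma. Before adjustment, 2 members were higher at a p under 0.05, against 8.21% of genes, and 1 was lower, against 8.25%. Sspn was higher by 0.26 (SE 0.0944, adjusted p = 0.187) and Dmd by 0.25 (SE 0.116, adjusted p = 0.301), and Sgca had a fold of -0.23 (SE 0.0990, adjusted p = 0.265). Utrn had a fold of 0.12 (SE 0.126, adjusted p = 0.667), which was 0.02 without OE-WD 2, 0.03 without CT-WD 2 and 0.23 without CT-WD 1. The groups of Dag1 and Sspn did not overlap, 2 of 8 members against 11.6% of genes, and in both the 4 OE-WD libraries were the higher ones. The median member fold was 0.16, against 0.01 for all genes. It was 0.05 without OE-WD 4, 0.04 without both OE libraries numbered 4, 0.05 without CT-WD 2 and 0.11 without OE-WD 2. With limma at a pseudocount of 1 it was 0.09, and with the replicate number as a block it was 0.04. In comparisons of OE with CT that block leaves the OE library numbered 4 without a CT partner. The library then adds nothing to the fold, so the block value is not separate from that without OE-WD 4.

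These counts turned on single control libraries. Without CT-WD 1, edgeR called Sgca with a fold of -0.33 (SE 0.0943, adjusted p = 0.0363) and Dmd with 0.38 (SE 0.116, adjusted p = 0.0472). The same fit called 1453 of all 15828 genes tested, against 102 of 15458 with every library, so calls were more frequent across all genes as well. Without CT-WD 2, by contrast, the fold of Dmd was 0.08 (SE 0.0925, adjusted p = 0.809), that of Sgca was -0.16 (SE 0.111, adjusted p = 0.636), and 0 of 8 members had an unadjusted p under 0.05; without OE-WD 1, 2 or 3 that count was 1, Sspn. Leaving out the libraries numbered 1 of both CT groups, an alternative chosen after seeing the data, gave 2 of 8 members called, against 10.4% of the 15693 genes then tested, again Sgca with -0.33 (SE 0.0844, adjusted p = 0.0221) and Dmd with 0.39 (SE 0.117, adjusted p = 0.0463). Over the 23 alternatives the adjusted p of Sgca ran from 0.0221 to 0.648 and that of Dmd from 0.0463 to 0.809. CT-WD 1 also held the highest fibroblast marker sum of the CT libraries, and the part of that in these calls was not tested.

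The effect of overexpression on control diet (OE-CTD against CT-CTD) gave 0 of 8 members called by edgeR with all libraries, against 2.49% of genes, and 0 by DESeq2 or limma. Before adjustment, 0 members were higher at a p under 0.05 (8.96% of genes) and 1 was lower (6.53%). This was Dtna, with a fold of -0.33 (SE 0.142, adjusted p = 0.274). No member was lower at that threshold without CT-CTD 2, CT-CTD 3, OE-CTD 1, OE-CTD 2 or OE-CTD 3 (0 of 8 in each; without CT-CTD 3 Utrn was higher), and without both OE libraries numbered 4 there were 2, Dtna with -0.36 and Sgcd with -0.52. Without CT-CTD 1 edgeR called Dtna, with a fold of -0.51 (SE 0.124, adjusted p = 0.0407) in a fit that called 364 of 15858 genes, and without CT-CTD 3 its fold was -0.15 (SE 0.140, adjusted p = 0.773). With the libraries numbered 1 of both CT groups left out, 1 of 8 members was called, against 4.87% of genes, and it was Dtna, with -0.51 (SE 0.106, adjusted p = 0.0127); over the 23 alternatives its adjusted p ran from 0.0127 to 0.773. Dmd had a fold of -0.17 (SE 0.115, adjusted p = 0.537) and Utrn of 0.22 (SE 0.127, adjusted p = 0.446); without OE-CTD 4 that of Dmd was -0.11, and without CT-CTD 3 that of Utrn was 0.33. Dmd was the 1 member of 8 whose groups did not overlap, against 15.5% of genes. The median member fold was -0.13, against 0.00 for all genes, and was -0.09 without CT-CTD 2 and -0.08 without OE-CTD 2.

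**Figure D2:**
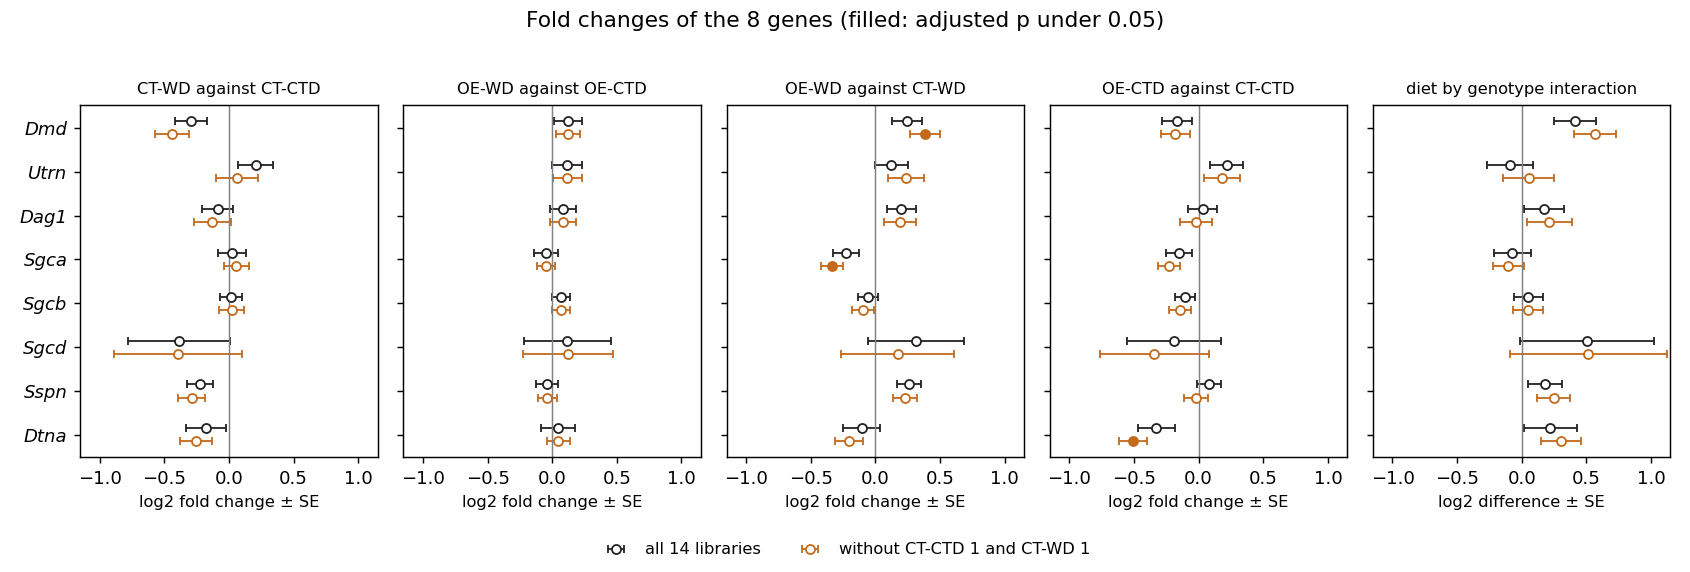
Log2 fold change with SE (horizontal axis) of the 8 genes (vertical axis) in the 5 comparisons, from all 14 libraries in black and without CT-CTD 1 and CT-WD 1 in orange; filled points have an adjusted p under 0.05. No black point is filled, and the filled orange points are Sgca and Dmd in OE-WD against CT-WD and Dtna in OE-CTD against CT-CTD. The orange setting was chosen after seeing the data. It called 10.4% of all genes in OE-WD against CT-WD and 4.87% in OE-CTD against CT-CTD.

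The diet by genotype interaction asks whether the diet difference was larger in OE than in CT mice. With edgeR 0 of 8 members were called, as was 0% of all genes, and 0 of 8 with DESeq2 or limma. Before adjustment, 1 member was higher at a p under 0.05, against 2.5% of genes, and 0 were lower, against 3.2%. The member was Dmd, with an interaction of 0.41 (SE 0.163, adjusted p = 0.862); without CT-WD 2 it was 0.25 (SE 0.123) and 0 members had an unadjusted p under 0.05, and without CT-CTD 1 there were 3, Dmd, Sspn and Dtna. With the replicate block the interaction of Dmd was 0.44 (SE 0.141). Utrn had an interaction of -0.09 (SE 0.178, adjusted p = 0.971). Without CT-WD 1 that of Utrn was 0.02, so its sign was not settled. The median over the 8 members was 0.18, against -0.01 for all genes, and was 0.05 without CT-CTD 3 and 0.10 without OE-WD 4. The 4 pairwise comparisons and the interaction share libraries, so the values of a member in them are not separate evidence.

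Dmd had an unadjusted p under 0.05 in 3 of the 5 comparisons, more than any other member, and all 3 use the CT-WD libraries. Dystrophin had its lowest libraries in CT-WD 2 and OE-CTD 4, alpha-sarcoglycan and alpha-dystrobrevin were both low in library 1 of each CT group, and dystroglycan and delta-sarcoglycan were both highest in the OE libraries numbered 4. Over the 14 libraries, Pearson's r of log2 CPM was above 0 in 18 of the 28 member pairs. The highest r was 0.772 for Sgca and Dtna, then 0.641 for Dag1 and Sgcd. The lowest was -0.583 for Utrn and Sgca, then -0.487 for Dmd and Sgca. With each group's mean removed, r was 0.878 for Dtna and Sspn, 0.776 for Sgca and Dtna, 0.704 for Dag1 and Sgcd and -0.584 for Dmd and Sgca. The dystrophin transcript and that of the most abundant sarcoglycan thus did not move together between libraries. These r values describe 14 libraries of 4 groups and were given no test.

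The genes with a pattern over the 14 libraries most like that of Dmd, by r of log2 CPM, were Vps33b (0.882), Wdr5b (0.873), Ano4 (0.872), Oxsm (0.869) and Zbtb20 (0.861). Most like Utrn were Rassf5 (0.941), Zfp185 (0.892), Gas6 (0.882), Crispld1 (0.878) and Gria3 (0.876). Neither list held another member of the complex.

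Members also moved with marker sums for cells and structures in the muscle, all of whose markers were tested. The neuromuscular junction markers (6 of 6 with counts in every library, most abundant Ache) summed to 114, 142 and 164 CPM in CT-CTD, 126, 148 and 157 CPM in CT-WD, 122, 125, 120 and 142 CPM in OE-CTD, and 129, 124, 123 and 143 CPM in OE-WD. Library 1 was the lowest of each CT group, as it was for Dtna, and the r of this sum with Dtna was 0.878 and with Sgca 0.861. The sum of markers of regenerating fibres and satellite cells had an r of 0.691 with Dtna and 0.703 with Sgca. The associations are thus not particular to junction markers. The fibroblast markers (5 of 5 with counts, most abundant Dcn) summed to 413, 386 and 302 CPM in CT-CTD, 941, 337 and 330.2 CPM in CT-WD, 887, 1042, 979 and 609 CPM in OE-CTD, and 671, 1513, 859 and 718 CPM in OE-WD. CT-WD 1 lay among the OE libraries and the other CT libraries lay below them all; the r of this sum was -0.861 with Sgca, -0.674 with Dtna and 0.733 with Utrn. The sum of the macrophage markers (5 of 5 with counts, most abundant Lyz2) had much the same r, -0.826 with Sgca, -0.795 with Dtna and 0.660 with Utrn, so these associations are not particular to fibroblast markers. Sgcd followed the fibre marker sum, with an r of 0.777, and that sum was highest in OE-WD 4 and OE-CTD 4 at 166040 and 161190 CPM. The part of these marker levels in the members' values was not tested.

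The endothelial markers (8 of 8 with counts, most abundant Cdh5) bear on the cells in which the transgene was driven in OE mice. They summed to 367, 362 and 406 CPM in CT-CTD, 432, 372 and 413 CPM in CT-WD, 452, 459, 427 and 447 CPM in OE-CTD, and 471, 486, 467 and 502 CPM in OE-WD. On each diet all OE libraries were above all CT libraries. In OE-WD against CT-WD 6 of the 8 markers were higher at an unadjusted p under 0.05 and 1 was lower, Flt1, with a fold of -0.33 (SE 0.114, adjusted p = 0.166), against 8.21% of all genes higher and 8.25% lower. In OE-CTD against CT-CTD 5 were higher and 0 lower, against 8.96 and 6.53% of all genes. Of the 8 edgeR called 1 in OE-WD against CT-WD, where 0.66% of all genes were called, Cdh5 with a fold of 0.46 (SE 0.0907, adjusted p = 0.0286), and 1 in OE-CTD against CT-CTD, where 2.49% were, Tek with 0.52 (SE 0.109, adjusted p = 0.0193); all 3 were named after their values had been seen. The r of the sum was 0.686 with Utrn and 0.240 with Dmd, and its part in the Utrn values was not tested. Utrn had an r of 0.733 with the fibroblast sum, so this association is not particular to endothelial markers. With the neuromuscular junction sum the r of Utrn was -0.228.

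Outside the cell, dystroglycan binds laminin, agrin and perlecan, and 8 such ligands and matrix partners were all tested. On western diet 6 of them were higher in OE than in CT at an unadjusted p under 0.05, against 8.21% of all genes, and 0 lower, with 1 called, against 0.66% of all genes. On control diet 6 were likewise higher, against 8.96% of all genes, and 0 lower, with 1 called, against 2.49%. The count of 6 on western diet stayed within 1.5 times under all 23 alternatives, and that on control diet did so except without CT-CTD 1, where it was 3. The number called ran from 0 to 6 on western diet, with 6 without CT-WD 1, where 1453 of all 15828 genes were called against 102 of 15458 with every library, and from 0 to 3 on control diet. The median ligand fold was 0.47 on western and 0.33 on control diet, against 0.01 and 0.00 for all genes. In both diet comparisons 0 of the 8 ligands had an unadjusted p under 0.05, with medians of 0.00 in CT and 0.07 in OE, and the interaction also had 0 with a median of -0.03. Dag1, which encodes their receptor, was not called in either comparison of OE with CT.

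Lamb1, the laminin beta-1 chain, was the ligand called. It reached 21.7, 23.1 and 24.6 CPM in CT-CTD and 27.9, 19.7 and 20.7 CPM in CT-WD, and 35.5, 47.3, 43.9 and 38.5 CPM in OE-CTD and 30.0, 48.8, 36.5 and 43.0 CPM in OE-WD. Every OE library was above every CT library, with OE-WD 1 and CT-WD 1 the closest. Lamb1 rose on control diet by 0.84 (SE 0.158, adjusted p = 0.0125) and on western diet by 0.80 (SE 0.158, adjusted p = 0.0315). The first call held in 21 of 23 alternatives, with adjusted p from 8.8e-05 to 0.0611, and was lost without CT-CTD 2 (0.0611) and without CT-CTD 3 (0.0564). The second held in 12 of 23, from 0.000544 to 0.173. It was lost without CT-WD 2 (adjusted p = 0.156), CT-WD 3 (0.173), OE-CTD 3 (just over 0.05), OE-WD 2 (0.0969), OE-WD 3 (0.0695) or OE-WD 4 (0.0832), with the libraries numbered 4 of both OE groups out (0.0870), with limma (0.0624 and 0.0579), with only the groups compared (0.167), and with the replicate number as a block (fold 0.74, adjusted p = 0.146).

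Of the other ligands, Hspg2, which encodes perlecan, had folds of 0.54 (SE 0.136, adjusted p = 0.0705) on western and 0.48 (SE 0.136, adjusted p = 0.0780) on control diet. Lamb2, a laminin chain dense at the neuromuscular junction, had 0.51 (SE 0.132, adjusted p = 0.0803) on western diet, and Lama2, the chain that dystroglycan grips in fibre basement membrane, had 0.43 (SE 0.124, adjusted p = 0.104). On control diet agrin, Agrn, had 0.26 (SE 0.0890, adjusted p = 0.147) and biglycan, Bgn, 0.96 (SE 0.317, adjusted p = 0.160). Fibroblast and endothelial marker sums, given above, were also higher in most OE libraries, and their part in the ligand values was not tested.

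**Figure D3:**
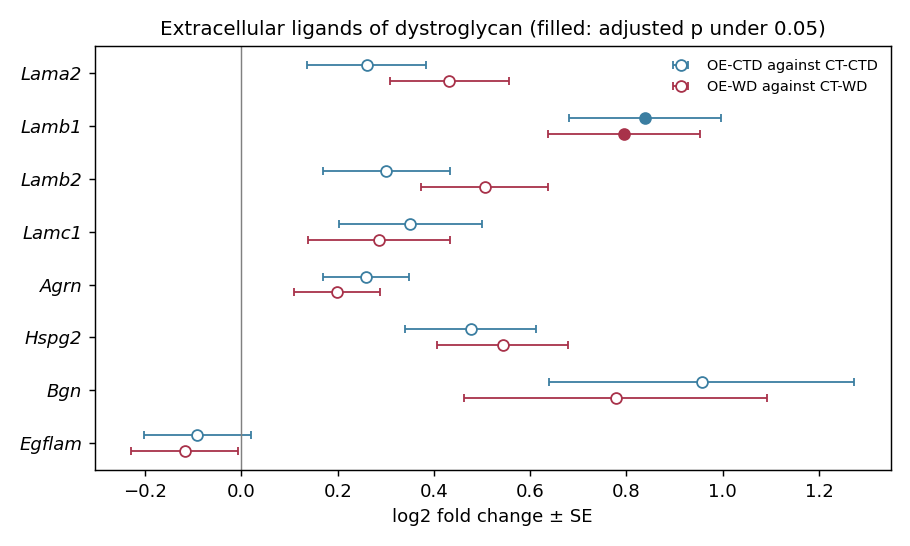
Log2 fold change with SE (horizontal axis) of 8 extracellular ligands and matrix partners of dystroglycan (vertical axis) for OE against CT on each diet; filled points have an adjusted p under 0.05. Lamb1 is filled on both diets, at 0.80 on western and 0.84 on control diet.

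Other subunits and cytoplasmic partners of the complex numbered 12, of which 9 were tested; Sgcz and Sntg1 had 0 counts in all 14 libraries and Sntg2 fell below the filter. Before adjustment, the numbers higher and lower at a p under 0.05 were 0 and 1 for CT-WD against CT-CTD, 0 and 1 for OE-WD against OE-CTD and 1 and 0 for the interaction, and those higher were 1 for OE-WD against CT-WD and 0 for OE-CTD against CT-CTD. Over all genes 3.06 and 2.17% were lower in the diet comparisons, 2.5% higher in the interaction and 8.21% higher in OE-WD against CT-WD, so 1 of 9 on western diet is near the share of all genes. The numbers lower in OE-WD against CT-WD and in OE-CTD against CT-CTD are not given here. The count of 1 in CT-WD against CT-CTD was 0 without CT-CTD 2, CT-CTD 3, CT-WD 1 or CT-WD 2 and 2 without CT-CTD 1. That in OE-WD against OE-CTD was 0 without any of OE-CTD 1, 2 and 3 or OE-WD 1, 3 and 4. The 1 higher in OE-WD against CT-WD was 0 without CT-WD 2 or OE-WD 2, and the 1 in the interaction ran from 0 to 2 with single libraries left out, being 0 without CT-CTD 2, CT-CTD 3, CT-WD 2, OE-CTD 3 or OE-CTD 4. The 1 gene called was Dtnb, beta-dystrobrevin, which fell in OE-CTD against CT-CTD, 1 of 9 where 2.49% of all genes were called. Dtnb reached 5.02, 6.74 and 6.15 CPM in CT-CTD and 3.37, 3.33, 1.24 and 2.55 CPM in OE-CTD, without overlap and from 30 to 161 counts. The fold was -1.18 (SE 0.297, adjusted p = 0.0445). The call held in 9 of 23 alternatives, with adjusted p from 0.00626 to 0.172.

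The Dtnb call was lost when any of CT-CTD 1 (0.0532), CT-CTD 2 (0.172), CT-CTD 3 (0.158), OE-CTD 1 (0.0601), OE-CTD 2 (0.0719), OE-CTD 3 (0.0974), OE-CTD 4 (0.0731), OE-WD 1 (0.0550), OE-WD 3 (0.0601) or OE-WD 4 (0.0567) was left out, the adjusted p being in parentheses. It was also lost with limma (0.0517 and 0.0715) and without both OE libraries numbered 4 (0.0812). With the replicate number as a block the adjusted p was 0.0838. Dtnb also had folds of -0.70 (SE 0.317) for diet in CT and 0.95 (SE 0.426) for the interaction, neither called. Of the adaptors that bind dystrophin and dystrobrevins, Sntb2 had a fold of 0.47 (SE 0.162) for OE against CT on western diet, and Sntb1 had -0.35 (SE 0.160) for diet in OE.

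Dystroglycan binds laminin only after its sugars are built, and 17 of 17 genes for that glycosylation were tested, with 0 called in any of the 5 comparisons by edgeR. The numbers higher and lower at an unadjusted p under 0.05 were 0 and 1 for CT-WD against CT-CTD, 0 and 0 for OE-WD against OE-CTD, 1 and 1 for OE-WD against CT-WD, 0 and 4 for OE-CTD against CT-CTD, and 1 and 0 for the interaction. Over all genes 8.21 and 8.25% were higher and lower in OE-WD against CT-WD, 6.53% were lower in OE-CTD against CT-CTD, 3.06% were lower in CT-WD against CT-CTD and 2.5% were higher in the interaction, so a single gene of 17 is near the share of all genes. The 4 lower in OE-CTD against CT-CTD were 2 without CT-CTD 1, CT-CTD 3 or OE-CTD 3, and each count of 1 was 0 or 2 without some single libraries. For CT-WD against CT-CTD it was 0 without CT-CTD 2 or CT-WD 1. For OE-WD against CT-WD the 1 lower was 0 without CT-WD 2, CT-WD 3, OE-WD 1, OE-WD 2 or OE-WD 3, and the 1 higher was 2 without OE-CTD 4. The 1 in the interaction was 0 without CT-CTD 3 and 2 without CT-WD 2 or OE-CTD 4. With folds in parentheses, the 4 lower in OE-CTD were the mannosyltransferase Pomt2 (-0.38, SE 0.120), B3galnt2 (-0.28, SE 0.0933), Dpm1 (-0.43, SE 0.169) and the kinase Pomk (-0.32, SE 0.144). Pomt2 had an interaction of 0.40 (SE 0.170). On western diet Gmppb, which makes the mannose donor, had 0.75 (SE 0.239) and Pomt1 -0.29 (SE 0.118), and Gmppb had -0.65 (SE 0.254) for diet in CT.

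The costamere and integrin linkage, which couples fibre and matrix beside the complex, was tested with 15 of 15 genes and 0 called in any comparison by edgeR with all libraries; without both OE libraries numbered 4, 1 was called in OE-CTD against CT-CTD, in a fit that called 538 of 15356 genes. It was Synm, which was lower and was named after its value was seen. Those higher and lower at an unadjusted p under 0.05 numbered 0 and 2 for CT-WD against CT-CTD, 0 and 0 for OE-WD against OE-CTD, 2 and 0 for OE-WD against CT-WD, 0 and 0 for OE-CTD against CT-CTD and 2 and 0 for the interaction. Over all genes 3.06% were lower in CT-WD against CT-CTD, 8.21% were higher in OE-WD against CT-WD and 2.5% were higher in the interaction, so 2 of 15 on western diet is near the share of all genes. These counts also turned on single libraries. The 2 for diet in CT were 0 without CT-CTD 3 or CT-WD 2. Those for OE-WD against CT-WD were 1 without CT-WD 2 or OE-WD 2, 4 without CT-WD 3 and 0 with the replicate number as a block. The 2 in the interaction were 0 without CT-CTD 3, CT-WD 2, OE-CTD 1 or OE-WD 4 and 1 without CT-CTD 1, CT-WD 3 or OE-CTD 3. At that threshold, those lower with diet in CT were Ank2 (fold -0.37, SE 0.139), which helps to place dystrophin at costameres, and the laminin receptor Itga7 (-0.25, SE 0.0981). Those higher in OE on western diet were the intermediate filament gene Sync (0.28, SE 0.104) and Itgb1 (0.24, SE 0.0958), the partner chain of Itga7, and the interaction had Sync (0.34, SE 0.147) and Itga7 (0.30, SE 0.130).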

How the data were processed

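The deposited count table holds read counts per gene and library, made by the authors with HISAT2 2.0.5 and featureCounts 1.5.0-p3 on mm10 per the submitters' processing notes, and the deposited FPKM table holds FPKM of the same genes; the tool behind the FPKM is not given in the sources used here. Gene positions and exonic lengths came from the GENCODE annotation of the same build, and the spans and lengths of the 8 genes equalled those in the files.

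All 14 libraries were fitted together in R 4.3.3 with edgeR 4.0.16 (TMM, filterByExpr by group, robust quasi-likelihood F test, a mean for each of 4 groups), which left 15458 of 54532 genes and removed 0.0467 to 0.0694% of counts. Adjusted p-values are Benjamini-Hochberg over all genes tested within a comparison. Log2 CPM for r used a prior count of 2. The fits were tested on simulated data, and the outcome is not given here. Alternatives were RLE size factors, DESeq2 1.42.0, no filter, limma 3.58.1 on log2 FPKM with a pseudocount of 1 or 0.1, only the groups compared, the replicate number as a block, each library left out, and, added after seeing the data, both OE libraries numbered 4 and both CT libraries numbered 1 left out. Replicate numbers paired the CT libraries across diets, with r of paired residuals of 0.385, 0.123 and 0.203. The block changed no call of a member. In comparisons of OE with CT the OE library numbered 4 has no partner in the block, so it adds nothing to the fold.

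The members and the gene and marker lists were chosen with earlier results of these data known. Every member's level is given in every library. Folds are given for Dmd and Utrn in all comparisons, and for another member where its unadjusted p was under 0.05. From each list up to 4 genes with the smallest unadjusted p under 0.05 are named for each comparison, and some genes are not used here. The 5 genes with the highest r, Gm and Rik names left out, are named for Dmd and Utrn. Figures were drawn with matplotlib 3.10.9.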

Additional observations from a re-analysis of the deposited data

Results flagged for a closer look

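In the 16 sets formed by the 8 genes in the 2 groups of 4 libraries, the gap between the extreme library and its nearest neighbour, divided by the range, passed Dixon's critical value for 4 samples in 2; chance gives about 1 in 20 sets. Dmd in OE-CTD had a library far below the others, OE-CTD 4 at 81.0 CPM. Dtna in OE-WD had a library far above the others, OE-WD 4 at 80.3 CPM. Both are libraries numbered 4, which stood apart across all genes. No member had an interaction with an adjusted p under 0.05 (smallest 0.862, edgeR; 1 of 8 at an unadjusted p under 0.05; 0 of 8 called with DESeq2 or limma).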

How the results depend on the processing

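With all 14 libraries, no member was called in any comparison under RLE factors, DESeq2, no filter or limma. None was called with the replicate block, in which the OE library numbered 4 adds nothing to the folds of OE against CT. The 4 pairwise comparisons fitted with only the libraries of the groups compared, which give no interaction, also called none. At an unadjusted p under 0.05 the counts below differ. Calls appeared when CT libraries numbered 1 were left out, which also leaves 2 libraries in each CT group; the cause was not tested.

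Leaving out 1 library at a time gave 0 to 2 members called in OE-WD against CT-WD and 0 to 1 in OE-CTD against CT-CTD. With the CT libraries numbered 1 out these counts were 2 and 1. At an unadjusted p under 0.05, CT-WD against CT-CTD had 2 members with all libraries, 1 with DESeq2, 1 with either limma pseudocount, 0 with only the groups compared and 0 to 3 with 1 library left out. OE-WD against CT-WD had 3 members, 1 with only the groups compared and 0 to 3 with 1 library out. OE-CTD against CT-CTD had 1 member, 0 with either limma pseudocount, 2 with the OE libraries numbered 4 out, 2 with the CT libraries numbered 1 out and 0 to 1 with 1 library out. The interaction had 1 member and 0 to 3 with 1 library out. With the replicate block the unadjusted counts were 2, 0, 3, 1 and 1 in the order of the comparisons.

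The interaction of Utrn changed sign, from -0.09 to 0.0165 without CT-WD 1 and 0.0527 with the CT libraries numbered 1 out, and its range with 1 library out was -0.20 to 0.0165. Of 320 alternative values of the 14 member folds given, 312 kept sign and side of the threshold, 6 passed the threshold and 2 changed sign. Group order by mean was the same in CPM and FPKM for 8 of 8 members. For a given gene these scales differ by library factors and a fixed length, so the shared order was largely set in advance. Of 1368 list counts 139 moved by over 1.5 times, among them the counts for which the report names libraries.

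Across all genes DESeq2 called 29, 1, 536, 798 and 3 genes where edgeR called 0, 1, 102, 385 and 0; the cause was not tested. Paired residuals of equally numbered libraries had r of 0.0711, 0.138 and 0.142 for diet in OE, -0.23, -0.158 and -0.0647 for OE-WD against CT-WD and 0.0465, -0.113 and -0.122 for OE-CTD against CT-CTD. Reads implied by the FPKM were 0.799 to 0.980 of the summed counts, lowest in OE-CTD 4 and OE-WD 4. Depth limits Sgcd, with 70 to 241 counts, more than the other members.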

Other observations

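Epidermal markers, of which Krt5 was the most abundant, summed to 37.7, 4.31 and 9.33 CPM in CT-CTD and 74.2, 8.12 and 8.22 CPM in CT-WD. In OE-CTD they summed to 15.2, 25.3, 29.1 and 2.40 CPM, and in OE-WD to 11.98, 55.5, 89.5 and 27.7 CPM. Library 1 was the highest of both CT groups, the same libraries in which Sgca and Dtna were low; any link between them was not tested. Adipocyte markers, with Cfd the most abundant, were also highest in these libraries, at 177 CPM in CT-CTD 1 and 142 CPM in CT-WD 1 against 22.5 to 120.1 CPM in the other libraries.

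Macrophage markers (5, most abundant Lyz2) summed to 26.7 to 92.4 CPM over the libraries. Smooth muscle and pericyte markers (6, most abundant Rgs5) summed to 351.5 to 458 CPM. Slow fibre markers (6, most abundant Atp2a2) summed to 3445 to 5568 CPM and fast fibre markers (6, most abundant Myh4) to 93775 to 134770 CPM. Markers of regenerating fibres and satellite cells (6, most abundant Myod1) summed to 52.0 to 144 CPM, highest in CT-WD 3. Of these lists edgeR called 1 gene, Myod1 in OE-CTD against CT-CTD, with a fold of -0.69 (SE 0.158, adjusted p = 0.0319), named after its value was seen, where 2.49% of all genes were called. In that comparison 0 of the 6 markers of its list were higher and 2, Myod1 and Myh8, lower at an unadjusted p under 0.05, and the median fold of the list was 0.26.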
